A study of Mus musculus with 8 samples.

Results

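Paneth cells sit at the base of small intestinal crypts, beside the stem cells, and release granules filled with antimicrobial proteins into the crypt lumen. In the mouse their best known products are the alpha-defensins, small cationic peptides that are made as inactive precursors and cut to their active form by the protease matrilysin, the product of Mmp7. Lysozyme, a ribonuclease, a lectin and a pentraxin are packed or secreted along with them. The set described here holds 10 such genes, chosen by symbol from the 55487 rows of the deposited table: the alpha-defensin genes Defa24, Defa30, Defa22, Defa21 and Defa17, then Mmp7, Lyz1, Ang4, Itln1 and Mptx2. All 10 symbols were found, each in 1 row, and all 10 passed the filter on low values.

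RNA of the ileum was sequenced in bulk from irinotecan-treated Gsdme-deficient mice (genotype Gsdme-/-, called Gsdme_KO, n = 4) and irinotecan-treated wild-type mice (genotype Gsdme+/+, called WT, n = 4). Irinotecan is a topoisomerase I inhibitor that injures the intestinal epithelium, while the product of Gsdme, gasdermin E, forms membrane pores once caspases have cut it. Every mouse had received irinotecan, so the values compare genotypes under treatment and say nothing of the response to the drug. The sources used here do not give strain, sex, age, dose, time after dosing or how the Gsdme allele was made.

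Gsdme itself was measured at 113, 187, 634 and 464 normalized counts in the Gsdme_KO libraries KO4, KO5, KO7 and KO8, against 3376, 2169, 3164 and 2696 in the WT libraries WT3, WT5, WT7 and WT8. The genotypes did not overlap, with a log2 difference of -3.32 (two-sided exact permutation p = 0.0286, the smallest the 70 assignments can give). Across all genes its adjusted p was 0.786 by limma, 0.812 by edgeR and 2.1e-07 by DESeq2, so limma and edgeR did not call it. The deleted stretch of Gsdme is not known here, so reads outside it may remain. The libraries held 15617407 to 23437343 reads in genes. The ileal genes Fabp6 (ileal bile acid-binding protein) and Slc10a2 (ileal bile acid transporter) were present in all 8 libraries, Fabp6 at 14739 to 57087 normalized counts in Gsdme_KO and 17519 to 72985 in WT. KO4 and KO5 were unlike the other 6 libraries: 14 B cell and follicle genes summed to 13649 normalized counts in KO4 and to 7885 in KO5, while the other 6 libraries had 410 to 570. For 20 mature enterocyte genes the sum was 230794 in KO4 and 322649 in KO5, and the other 6 had 430399 to 726410.

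The alpha-defensin genes are near copies of each other, and their sequences are given first because the similarity bears on how far each row of the table can be read as 1 gene. The 28 numbered Defa genes of the table lie on chromosome 8 between 21025545 and 21735471 (GRCm38). Each of the 5 Defa members has a coding sequence of 282 bases in 2 coding exons on the plus strand. The last 108 bases of the coding sequence, which end in the stop codon and encode the end of the precursor that holds the mature peptide, are shown 5′ to 3′ from GENCODE M21 (GRCm38). Capitals mark bases that differ from Defa24 at the same place.
Defa24: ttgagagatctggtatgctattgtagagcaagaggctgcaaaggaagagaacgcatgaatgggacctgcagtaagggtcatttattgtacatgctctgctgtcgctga
Defa30: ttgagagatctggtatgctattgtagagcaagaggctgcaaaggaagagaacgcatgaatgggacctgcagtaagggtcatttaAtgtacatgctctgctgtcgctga
Defa17: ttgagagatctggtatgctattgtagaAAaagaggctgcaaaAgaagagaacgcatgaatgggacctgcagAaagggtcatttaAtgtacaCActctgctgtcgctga
Defa22: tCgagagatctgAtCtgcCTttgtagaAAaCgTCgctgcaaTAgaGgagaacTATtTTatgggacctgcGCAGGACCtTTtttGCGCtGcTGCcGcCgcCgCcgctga
Defa21: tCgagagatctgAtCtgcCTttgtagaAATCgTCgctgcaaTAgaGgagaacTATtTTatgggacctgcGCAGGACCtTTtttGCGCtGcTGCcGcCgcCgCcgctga
These stretches lie at chr8:21735270-21735377 (Defa24), chr8:21135396-21135503 (Defa30), chr8:21656534-21656641 (Defa17), chr8:21163048-21163155 (Defa22) and chr8:21026316-21026423 (Defa21). Over these 108 bases Defa30 differed from Defa24 at 1 base, Defa17 at 7, Defa22 at 40 and Defa21 at 41. These counts go place by place without gaps, so an offset within the stretch can raise those of Defa22 and Defa21. The 5 genes thus fall into a pair, Defa22 and Defa21, whose coding sequences were 99.3% identical, and a trio, in which Defa24 and Defa30 were 98.6% identical. Coding identity between the pair and the trio was 80.8% to 82.8%.

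Shared sequence limits the separate levels of some of these genes. The share of 100-base windows of a transcript that also occur, on either strand, in a transcript of another gene was 0% for Defa24 and 0.334% for Defa30, but 40.3% for Defa22, 40.4% for Defa21 and 90.6% for Defa17. Defa22 and Defa21 shared these windows with each other, and Defa17 shared most with Defa3. With 50-base windows the shares were 28.1% for Defa24 and 52.4% for Defa30, each sharing most with the other. They were 74.9% for Defa22, 72.9% for Defa21 and 91.95% for Defa17. The sources used here give neither read length nor the treatment of reads that match several genes. The level of Defa17, and the split between Defa22 and Defa21, are therefore uncertain. If reads were short, the split between Defa24 and Defa30 is uncertain too. Outside the defensins the share was 0% for Ang4 and Itln1, 2.06% for Lyz1 (with Lyz2, the macrophage lysozyme gene), 2.58% for Mmp7 (with AV064505, a gene on the opposite strand at that locus) and 3.31% for Mptx2 (with Mptx1).

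Upstream sequence of these genes was compared as well, for the letters of 2 motifs. RefSeq promoter windows (GRCm38.p6) were at hand for 8 of the 10 genes. The 250 bases before the RefSeq start of Defa21 and of Defa22 were 100% identical. Aligned with those of Defa30, each matched at 60.7% of 280 aligned positions, with gaps counted as differences. The windows were cut by the RefSeq starts, so an offset between starts lowers this share. The last 120 bases before the RefSeq start are shown for Defa22 (chr8:21162157-21162276, plus strand), which also stands for Defa21, and for Defa30 (chr8:21134530-21134649, plus strand). For Defa30 the start given by GENCODE, 21134642, lies upstream of that of RefSeq, so the last 8 bases shown belong to the GENCODE transcript; distances below are from the RefSeq start. Capitals mark TATAAA and matches to TCF/LEF, searched on both strands as CTTTGAT or as CTTTGAA, and with other last letters as CTTTGTT or as CTTTGTA. No match of one motif overlaps the other in the bases shown.
Defa22: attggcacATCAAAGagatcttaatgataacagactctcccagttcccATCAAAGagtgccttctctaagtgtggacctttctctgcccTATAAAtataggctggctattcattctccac
Defa30: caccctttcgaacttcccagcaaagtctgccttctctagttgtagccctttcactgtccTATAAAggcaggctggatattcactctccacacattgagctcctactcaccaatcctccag
In Defa22 and Defa21 TATAAA began 31 bases before the start and the reverse complement of CTTTGAT began 72 and 112 bases before it. In Defa30 TATAAA began 61 bases before the start and the TCF/LEF match 142 bases before it, beyond the bases shown. Over 250 bases TATAAA occurred in 15 of 16 Defa windows and in 12.4% of all 32851 promoter windows. A TCF/LEF match occurred in 13 of 16 Defa windows and in 14.8% of all windows. Defa windows can be copies of each other, as those of Defa21 and Defa22 are, so they are not separate observations. Mmp7 had the motifs in different windows, TATAAA 26 and 123 bases before 1 of its RefSeq starts and the reverse complement of CTTTGAT 247 bases before another. The window with TATAAA held no TCF/LEF match. The other window begins at 7692091, downstream of the GENCODE start of Mmp7, 7692090, so its match lies within the gene as given by GENCODE. The windows of Lyz1, Ang4, Itln1 and Mptx2 held neither. These are matches of letters only.

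None of the 10 Paneth cell genes passed the test between genotypes. Log2 fold changes of Gsdme_KO over WT by limma ran from -0.16 for Defa21 to 0.52 for Ang4, 7 positive and 3 negative with a median of 0.18. The median over all 16352 genes tested was 0.00 and 50.6% of them were positive. Levels differed between single libraries: KO5 was the highest of the 8 libraries for 9 of the 10 genes. For Defa21, the other one, KO5 came second to WT7. KO5 was highest for 9.7% of all genes tested.

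The count of calls was 0 of 10 by limma on log2(normalized count + 1), at a Benjamini-Hochberg adjusted p under 0.05 over all genes tested, where 0.00612% of all genes were called. It was 0 of 10 also by edgeR (0.00612% of all genes called) and by DESeq2 (0.055% called) on recovered reads. At an unadjusted p under 0.05 the count was 0 of 10 with each tool, against 4.38% of all genes by limma (2.61% for higher levels alone), 6.01% by edgeR and 6.94% by DESeq2. In 0 of 10 genes did the genotypes not overlap, against 2.5% of all genes. The limma adjusted p ran from 0.849 (Defa30) to 0.999 (Defa22), and the 95% intervals of the log2 fold change, from -1.23 at the lowest (Mptx2) to 1.74 at the highest (Ang4), leave room for differences in either direction. In bulk RNA, fewer Paneth cells and less RNA per Paneth cell cannot be told apart.

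**Figure D1:**
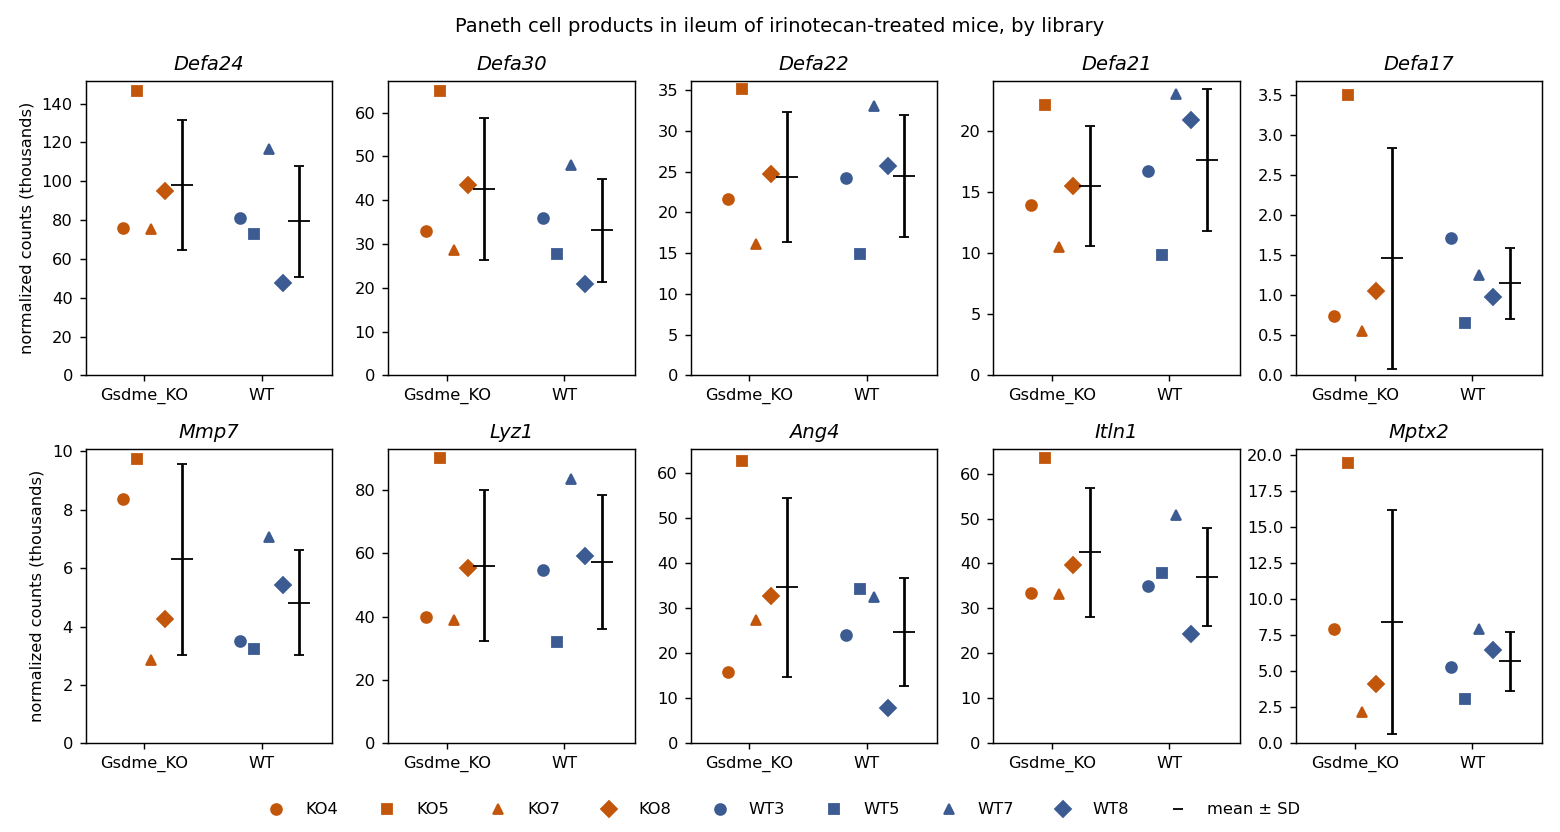
Normalized counts (divided by 1000, linear axes from 0) of the 10 genes in the 4 Gsdme_KO libraries (orange, left) and the 4 WT libraries (blue, right), 1 symbol per library, with the mean and SD of each genotype in black. KO5 (orange square) is the top point in every panel but that of Defa21, where WT7 is higher, and the genotypes overlap in all 10 panels.

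Among the defensins, Defa24 (ENSMUSG00000064213, chromosome 8, 21734494 to 21735471, plus strand) had the highest level. It had 76027, 146628, 75307 and 94963 normalized counts in KO4, KO5, KO7 and KO8, against 80815, 72753, 116566 and 47508 in WT3, WT5, WT7 and WT8. KO5 and WT7 were the high libraries and WT8 the low one, and the genotypes overlapped. The means were 98231 ± 33523 in Gsdme_KO and 79410 ± 28546 in WT (SD, n = 4 each), a log2 fold change of 0.32 (SE 0.323, 95% interval -0.41 to 1.06, limma adjusted p = 0.86).

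Defa30 (ENSMUSG00000074444, chromosome 8, 21134642 to 21135598, plus strand) followed Defa24 closely. It had 32986, 65009, 28668 and 43456 normalized counts in KO4, KO5, KO7 and KO8, against 35883, 27713, 48017 and 20836 in WT3, WT5, WT7 and WT8. The same libraries were high and low as for Defa24, namely KO5, WT7 and WT8. Its log2 fold change was 0.36 (SE 0.321, 95% interval -0.37 to 1.09, limma adjusted p = 0.849). The ratio of Defa24 to Defa30 stayed between 2.19 (KO8) and 2.63 (KO7) in the 8 libraries, although each gene varied over 3-fold between them. Their transcripts share 50-base windows, as given above, and the part of this in the ratio was not tested.

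Defa22 (ENSMUSG00000074443, chromosome 8, 21162277 to 21163249, plus strand) had 21611, 35110, 16144 and 24666 normalized counts in KO4, KO5, KO7 and KO8, against 24268, 14855, 33116 and 25658 in WT3, WT5, WT7 and WT8. Defa21 (ENSMUSG00000074447, chromosome 8, 21025545 to 21026516, plus strand) had 13934, 22181, 10531 and 15500 in the same Gsdme_KO libraries, against 16740, 9862, 23052 and 20901 in the same WT libraries. For both, KO5 and WT7 were high and KO7 and WT5 low, and WT8 was not among the low libraries as it was for Defa24 and Defa30. The log2 fold changes were -0.0049 for Defa22 (SE 0.292, limma adjusted p = 0.999) and -0.16 for Defa21 (SE 0.303, limma adjusted p = 0.925).

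The proportions of the defensins thus differed between libraries. The ratio of Defa24 to Defa21 was 5.46, 6.61, 7.15 and 6.13 in KO4, KO5, KO7 and KO8, against 4.83, 7.38, 5.06 and 2.27 in WT3, WT5, WT7 and WT8. WT8 had the lowest ratio of the 8. Defa24 made up 28.3% of the summed counts of the 28 numbered Defa genes in WT8 and up to 46.5% in another library. The ratio of Defa22 to Defa21, near copies, was 1.55, 1.58, 1.53 and 1.59 in KO4, KO5, KO7 and KO8, against 1.45, 1.51, 1.44 and 1.23 in WT3, WT5, WT7 and WT8. These did not overlap between genotypes, but the ratio is 1 of 11 computed and was singled out after its values were seen, so no test is given.

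**Figure D2:**
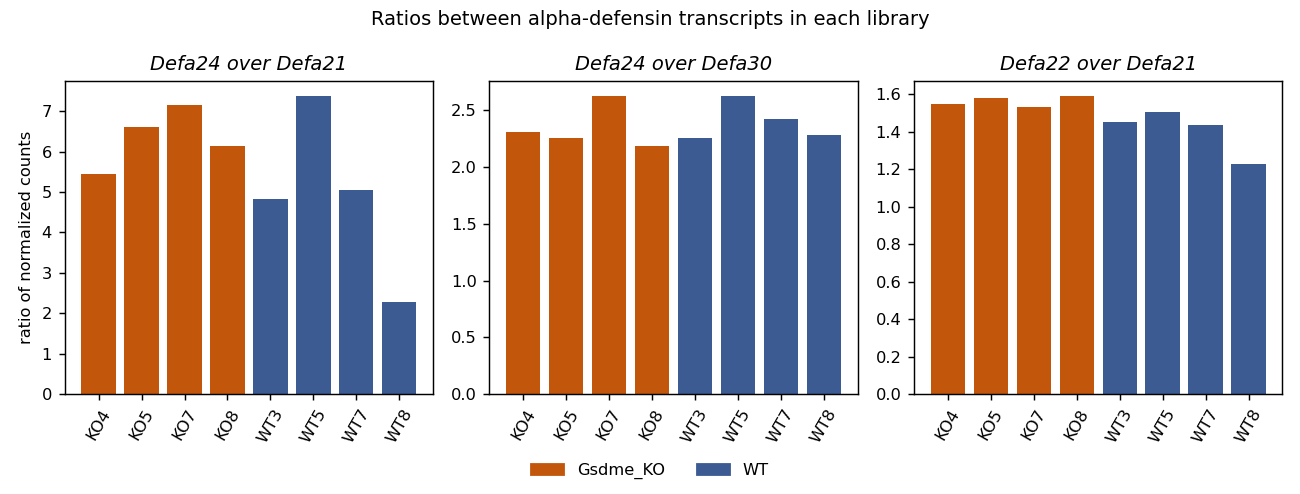
Ratios of normalized counts between alpha-defensin genes in each library (bars from 0, Gsdme_KO orange on the left, WT blue on the right). Defa24 over Defa30 stays between 2.19 and 2.63, Defa22 over Defa21 lies between 1.23 and 1.59, and Defa24 over Defa21 ranges from 2.27 in WT8 to 7.38 in WT5.

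Defa17 (ENSMUSG00000060208, chromosome 8, 21655780 to 21656735, plus strand) was the lowest of the 5 defensins, with 740, 3501, 551 and 1051 normalized counts in KO4, KO5, KO7 and KO8, against 1710, 649, 1249 and 978 in WT3, WT5, WT7 and WT8. KO5 was far above all others. The log2 fold change was 0.04 (SE 0.546, 95% interval -1.20 to 1.28, limma adjusted p = 0.991), and without KO5 it was -0.52. Few windows of this transcript are its own, as given above.

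Mmp7 (ENSMUSG00000018623, chromosome 9, 7692090 to 7699585, plus strand), whose product activates the mouse alpha-defensin precursors, had 8367, 9739, 2844 and 4245 normalized counts in KO4, KO5, KO7 and KO8, against 3505, 3245, 7084 and 5416 in WT3, WT5, WT7 and WT8. KO4 was high here, as it was not for any of the 5 defensins. The means were 6299 ± 3280 in Gsdme_KO and 4812 ± 1797 in WT (SD, n = 4 each), a log2 fold change of 0.29 (SE 0.415, 95% interval -0.65 to 1.24, limma adjusted p = 0.901). It was 0.10 without KO4, 0.03 without KO5 and 0.62 without KO7. The ratio of Mmp7 to Defa21 was 0.601 in KO4 and 0.439 in KO5, and lay between 0.209 and 0.329 in the rest. Relative to Lyz1, Mmp7 was high in KO4 alone: the ratio was 0.209, 0.108, 0.0732 and 0.0768 in KO4, KO5, KO7 and KO8, against 0.0641, 0.102, 0.0847 and 0.0914 in WT3, WT5, WT7 and WT8. AV064505, on the opposite strand, averaged 18.7 normalized counts, and the strand setting of the counting is not stated. KO4 was also the library with the highest B cell and lowest enterocyte counts; the part of other cell types in these ratios was not tested.

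Lyz1 (ENSMUSG00000069515, chromosome 10, 117287797 to 117292868, minus strand) encodes the lysozyme of Paneth cells, which cuts bacterial cell walls. It had 40018, 90059, 38839 and 55289 normalized counts in KO4, KO5, KO7 and KO8, against 54663, 31923, 83587 and 59271 in WT3, WT5, WT7 and WT8. KO5 and WT7 were again high, and WT5, KO7 and KO4 low. The log2 fold change was -0.04 (SE 0.355, 95% interval -0.85 to 0.77, limma adjusted p = 0.986). Lyz2, the closely related macrophage lysozyme, had another order and was highest in KO4, with 6411 normalized counts, and had 4665 in KO5 and 2891 in WT7.

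Ang4 (ENSMUSG00000060615, chromosome 14, 51763878 to 51773590, minus strand), an antimicrobial ribonuclease of the angiogenin family, had 15786, 62693, 27388 and 32675 normalized counts in KO4, KO5, KO7 and KO8, against 24104, 34190, 32516 and 7877 in WT3, WT5, WT7 and WT8. Library WT8 was the low library and KO5 the high one, 7.96-fold apart. The log2 fold change of 0.52 was the largest of the set by limma (SE 0.540, 95% interval -0.71 to 1.74, limma adjusted p = 0.866). That of Mptx2 was larger by edgeR (0.57, against 0.50 for Ang4) and by DESeq2 (0.56, against 0.49 for Ang4). For Ang4 the limma values without single libraries varied. The log2 fold change of Ang4 was 0.04 without WT8 and 0.17 without KO5.

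Itln1 (ENSMUSG00000038209, chromosome 1, 171518122 to 171535294, minus strand) encodes intelectin, a lectin that binds microbial sugars and is also made by goblet cells. It had 33377, 63519, 33222 and 39719 normalized counts in KO4, KO5, KO7 and KO8, against 34887, 37932, 50812 and 24259 in WT3, WT5, WT7 and WT8. Itln1 had the narrowest range within Gsdme_KO of the 10 genes, 1.91-fold, and within WT, 2.09-fold. The log2 fold change was 0.19 (SE 0.279, 95% interval -0.44 to 0.83, limma adjusted p = 0.902).

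Mptx2 (ENSMUSG00000079180, chromosome 1, 173274382 to 173277777, minus strand) encodes a mucosal pentraxin of Paneth cells and had the widest range of the 10 genes. It had 7908, 19485, 2142 and 4103 normalized counts in KO4, KO5, KO7 and KO8, against 5312, 3096, 7950 and 6452 in WT3, WT5, WT7 and WT8. Gsdme_KO values spanned 9.1-fold and enclosed all 4 WT libraries. The log2 fold change was 0.17 (SE 0.616, 95% interval -1.23 to 1.57, limma adjusted p = 0.96), and without KO5 it was -0.39.

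**Figure D3:**
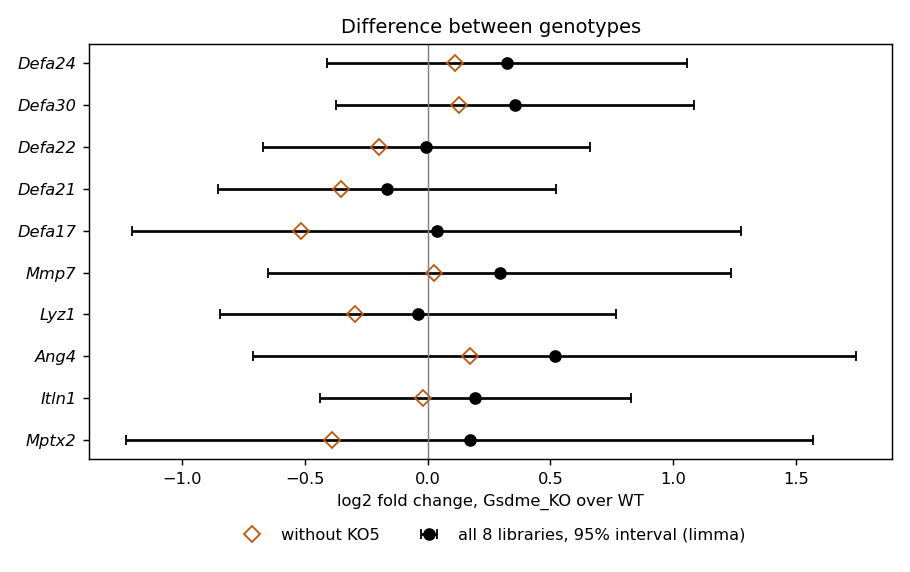
Log2 fold change of Gsdme_KO over WT for the 10 genes, with limma's 95% interval (black, all 8 libraries) and the value without KO5 (open orange diamonds). Every interval includes 0, and without KO5 6 of the 10 values lie below 0.

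Levels of different genes were compared per kilobase of exon. Defa24 stood first, at 234442 ± 80008 normalized counts per kilobase in Gsdme_KO and 189523 ± 68129 in WT, and Defa30 second, at 106858 ± 40757 and 83197 ± 29362 (Gsdme_KO, then WT; SD, n = 4 each). Defa22, Lyz1, Ang4, Defa21 and Itln1 came next, with means between 37169 and 58193 in Gsdme_KO and between 32403 and 58411 in WT, and their order did not exceed their spread. Mptx2 had 10591 ± 9776 in Gsdme_KO and 7182 ± 2577 in WT, Mmp7 5898 ± 3071 and 4506 ± 1683, and Defa17 3680 ± 3465 and 2888 ± 1130. The 10 genes together took 1.41%, 2.94%, 1.24% and 1.78% of all normalized counts in KO4, KO5, KO7 and KO8, against 1.47%, 1.23%, 2.17% and 1.29% in WT3, WT5, WT7 and WT8.

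The 3 role groups shared the same high libraries. Relative to the WT mean, the mean log2 level of the 5 defensins was 0.93 in KO5, -0.17 in KO4, -0.47 in KO7 and 0.14 in KO8, against 0.48 in WT7 and -0.48 to 0.20 in the other WT libraries. Lyz1 and Mmp7 gave 0.91 in KO5, against 0.63 in WT7, and Ang4, Itln1 and Mptx2 gave 1.41 in KO5, against 0.56 in WT7. KO5 was also the library with most reads (23437343). WT7, in the top 2 for 7 of the 10 genes, had 16836966, less than 5 of the other libraries. KO4, which shares high B cell and low enterocyte counts with KO5, had a median over the 10 genes of -0.11 relative to the WT mean, against 1.00 in KO5. The parts of depth and of tissue composition in the levels of KO5 and WT7 were not tested.

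**Figure D4:**
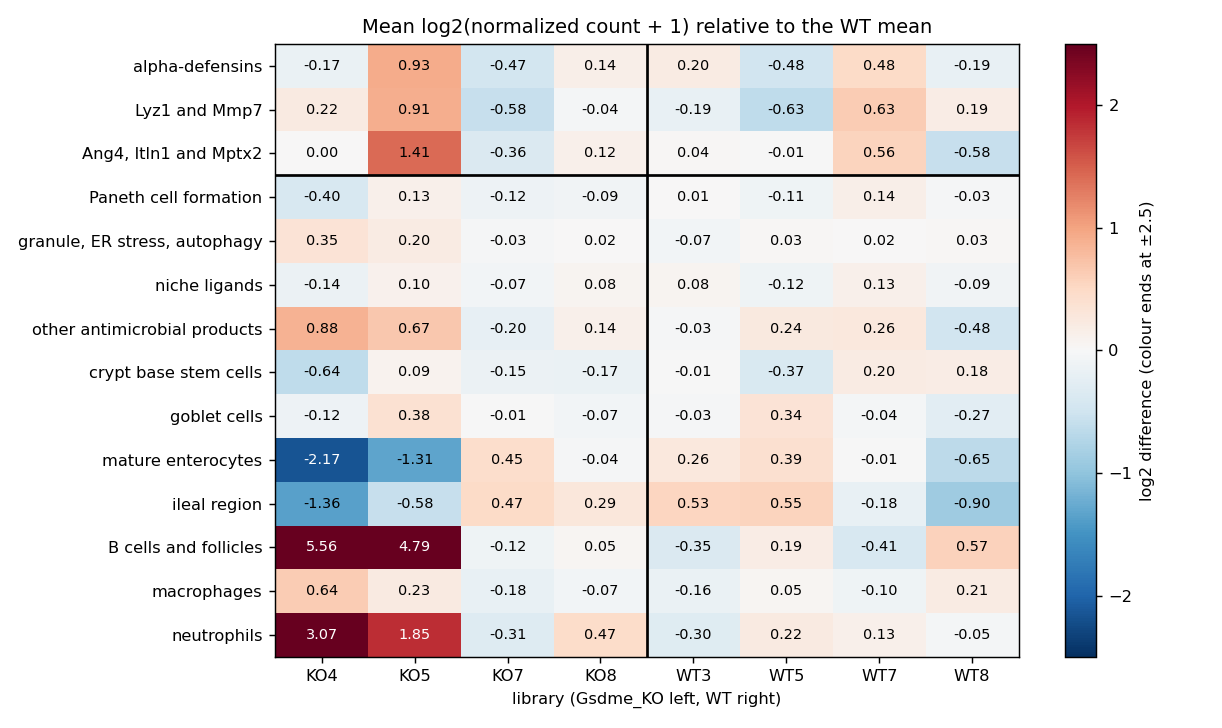
Mean log2(normalized count + 1) relative to the WT mean in each library (Gsdme_KO left of the line, WT right) for 3 groups of Paneth cell products (top rows) and 11 other gene lists; colour ends at ±2.5 and the cells print the value. KO5 is highest in the top 3 rows (0.91 to 1.41), whereas the B cell row is high in both KO4 (5.56) and KO5 (4.79).

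Genes whose profile over the 8 libraries lay closest to these groups were found by the root mean square difference of centred log2 values, among 13055 genes whose mean normalized count was 50 or more. For the 5 defensins, whose mean profile had an SD of 0.455, the 3 closest were Defa3 (0.133), Defa5 (0.143) and Defa20 (0.156), all alpha-defensin genes. For Lyz1 and Mmp7 they were Pla2g2f (0.192), a secreted phospholipase A2, then Defa40 (0.220) and Defa29 (0.228). For Ang4, Itln1 and Mptx2 they were Defa3 (0.153), Defa26 (0.169) and Bhlha15 (0.240), a transcription factor of secretory cells. The mean profile of these 3 genes had an SD of 0.571, and Ang4 (0.512) and Mptx2 (0.613) themselves lay about that far from it, so it describes neither gene closely. Bhlha15 had 184, 377, 133 and 151 normalized counts in KO4, KO5, KO7 and KO8, against 199, 181, 282 and 161 in WT3, WT5, WT7 and WT8. Some of the Defa genes named share transcript windows with other Defa genes, as Defa3 does with the member Defa17, so their reads may not be separate.

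The wider alpha-defensin family gave the same picture between genotypes. The table holds 45 Defa rows, of which 40 are not members; 17 of the 40 carry a pseudogene symbol and 7 were at 0 in every library. Of the 25 that passed the filter, 0 were called by limma, with 13 positive and 12 negative log2 fold changes and a median of 0.06. The 3 highest were Defa20, Defa38 and Defa34, with log2 fold changes of -0.07 (limma adjusted p = 0.964), -0.11 (0.95) and 0.06 (0.972). Summed over the 28 numbered Defa genes, the counts were 187550, 357675, 162013 and 228329 in KO4, KO5, KO7 and KO8, against 214069, 161023, 289424 and 168082 in WT3, WT5, WT7 and WT8. Reads that match several genes can affect this sum too, since some of these genes share windows with rows outside it, as Defa42 does with Gm7861 and Defa28 with Defa-ps18. The ratio of means, Gsdme_KO over WT, was 1.12 with all libraries and 0.925 without KO5. The 5 members made up 68.9% to 81.0% of that sum.

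A few other Defa rows had a wide range between libraries. In 5 rows, named after their values were seen, the highest library exceeded the lowest more than 10-fold, as in 4.19% of all genes tested. The range was 11.4-fold for Defa2, not far above the 9.1-fold of Mptx2, and at least 21.9-fold for the other 4. Defa32 had 8253 normalized counts in KO5 and 6729 in WT8, and 300 to 802 elsewhere. Defa37 had 1326 in KO5, and 47.6 to 133 elsewhere. Defa2 had 2437 in KO8 and 3034 in WT7, against 267 to 936 elsewhere, and in those 2 libraries Defa33 was lowest, with 27.4 in KO8 and 69.7 in WT7. Defa31 had 47.5 in KO7, 107 in KO8 and 161 in WT8, against 434 to 1381 in the other 5. The highest libraries of Defa32 and Defa2 came from both genotypes, and limma called 0 of the 5 rows. In all 5 rows at least 99.7% of the 100-base windows also occurred in another gene, so the assignment of these counts to 1 gene is uncertain.

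**Figure D5:**
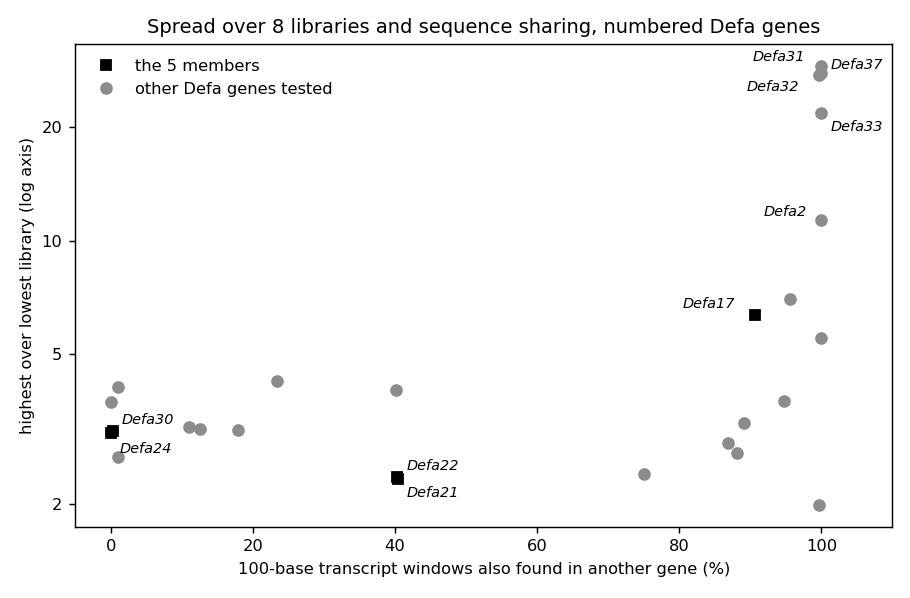
Highest over lowest library (log axis) against the share of 100-base transcript windows that also occur in another gene, for the numbered Defa genes tested (black squares, the 5 members; grey circles, others). Defa24 and Defa30 lie near 0% with a spread near 3-fold, and the 5 rows above 10-fold lie at 99.7% to 100%; Defa20, also at 99.7%, has a spread of 1.99-fold.

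Other genes of Paneth cell biology were counted on lists, in which neither limma nor DESeq2 called a gene. Of 16 genes of Paneth cell formation (transcription factors, Wnt and Eph signalling), 0 were called, with 6 positive and 10 negative log2 fold changes and a median of -0.09. The most abundant were Ctnnb1, which encodes beta-catenin (log2 fold change -0.10, limma adjusted p = 0.849), and the Wnt co-receptor gene Lgr4 (-0.08, 0.899). Of 19 genes of granule secretion, ER stress and autophagy, 0 were called, 12 positive and 7 negative with a median of 0.05, and the most abundant were the chaperone gene Hspa5 (0.11, limma adjusted p = 0.932) and Agr2 (-0.21, 0.849), a disulfide isomerase of secretory cells. Of 9 niche ligands and surface proteins, 0 were called, 4 positive and 5 negative with a median of -0.02. Cd24a, used to isolate Paneth cells, had 6242 normalized counts in KO5 and 4070 to 4305 in the other 3 Gsdme_KO libraries, against 2895 to 4689 in WT. Bst1, the other most abundant gene of this list, was not high in KO5. It had 1227 there and 1048 to 2137 in the other 3 Gsdme_KO libraries, against 820 to 2955 in WT.

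Genes of other antimicrobial products and of other cell types were also counted, and limma called none of them. Of 23 other antimicrobial genes tested, 0 were called, 16 positive and 7 negative with a median of 0.31. The most abundant, Reg3b and Reg3g, which encode antimicrobial lectins, had negative log2 fold changes by limma. Reg3b had 167295, 37374, 27177 and 38175 normalized counts in KO4, KO5, KO7 and KO8, against 96313, 83232, 88751 and 140087 in WT3, WT5, WT7 and WT8 (log2 fold change -0.99, limma adjusted p = 0.849). Reg3g had 181666, 29763, 13789 and 20516 in the Gsdme_KO libraries, against 50676, 41528, 46406 and 95493 in the WT libraries (log2 fold change -0.65, limma adjusted p = 0.875). The sign for Reg3g turned with the tool, as its log2 fold change was 0.074 by edgeR and 0.071 by DESeq2. For both, KO4 was above every WT library and KO5, KO7 and KO8 were below every WT library. Of 14 goblet cell genes 0 were called (median -0.12), and their mean log2 level relative to the WT mean was 0.38 in KO5, against 0.34 in WT5. Of 12 crypt base stem cell genes 0 were called (median -0.26), and relative to the WT mean their level was -0.64 for KO4 and 0.09 for KO5, while WT libraries lay between -0.37 and 0.20. Of 14 B cell and follicle genes, 14 had a positive log2 fold change with a median of 2.19; limma called 0, and DESeq2 called 3, Bank1 (adjusted p = 0.0325), Pax5 (0.0371) and Fcer2a (0.0325). Macrophage genes had a median log2 fold change of 0.16 and neutrophil genes of 1.38, with 0 called by limma of 10 and of 9 tested. The neutrophil level was 3.07 in KO4 and 1.85 in KO5 relative to the WT mean, and its part in the values above was not tested.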

How the data were processed

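Per the labels' protocols, total RNA of the ileum was poly(A)-selected and sequenced as strand-specific libraries. HISAT2, SAMtools, Subread, featureCounts, DESeq2 and GRCm38 are named in the submitters' processing notes; no version, annotation release or strand setting is stated there. The deposited table holds a normalized signal, made by the authors by dividing each gene's reads by a size factor of its library. Reads could be recovered as whole numbers: 100% of values in each library were whole multiples of 1 step within 0.01 reads. The divisors ran from 0.821 to 1.33. Column headers give the genotype but not the label numbers, so columns were assigned to genotypes only. The labels number the mice of each genotype but do not say more of their origin, so p-values measure the spread between these samples. No libraries agreed within sampling noise (lowest chi-square per degree of freedom 12.5).

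The test was limma-trend (limma 3.58.1, R 4.3.3) on log2(normalized count + 1), for 16352 genes with a mean of at least 10, with adjusted p over all of them and no covariate. Fold changes on this scale understate the change of low genes. Alternatives were edgeR 4.0.16 and DESeq2 1.42.0 on recovered reads, pseudocounts of 0.5 and 5, other filters, TMM and quantile scaling, array weights and each library left out. The limma procedure was also run on simulated counts with known changes, but the outcome is not given here and nothing above rests on it. Sequences are from GENCODE M21 (GRCm38) and RefSeq (GRCm38.p6). Named were all members, Gsdme, the 2 most abundant genes of each list unless some were called, the 3 highest other Defa rows and the 3 closest profiles per role group; of some lists fewer are printed, and others named are said to be chosen after their values were seen. Members and lists were chosen with earlier results of these data known.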

Additional observations from a re-analysis of the deposited data

Results flagged for a closer look

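Libraries that stood far from the other 3 of their genotype were found in 13 of 118 groups of 4 examined. The cutoff used flags about 5% of groups when values are independent and normally distributed. These values are untransformed counts of related genes in the same libraries, so that rate does not apply and no excess can be read from it. Defa17 had 3501 normalized counts in KO5, against 551 to 1051 in the other Gsdme_KO libraries. Of the other Defa rows, KO5 had 8253 for Defa32, 1412 for Defa23 and 1326 for Defa37, and outlying WT values were 6729 for Defa32 in WT8 and 3034 for Defa2 in WT7. Cd24a had 6242 in KO5. KO4 had 167295 for Reg3b, 181666 for Reg3g, 749 for Ltf, which encodes lactoferrin, and 1672 for Slc12a2, the last being low. WT8 had 95493 for Reg3g and 4457 for Lyz2.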

How the results depend on the processing

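The count of Paneth cell genes called stayed at 0 under all 18 alternatives, and over these and the 10 genes the lowest adjusted p was 0.502. Across all genes DESeq2 called 9 instead of 1, and leaving out 1 library gave 0 to 1. Among the genes of the other lists DESeq2 called 3 instead of 0, the B cell genes Bank1, Pax5 and Fcer2a. The Gsdme difference with medians in place of means was -3.31 (exact permutation p = 0.0571), and with 1 library left out it ran from -3.71 to -2.88. Signs turned under at least 1 alternative for 7 of the 10 genes: Defa22 was 0.00098 with quantile normalization and 0.0017 by edgeR, Lyz1 0.0783 with quantile normalization, and array weights gave -0.18 for Defa17, -0.0066 for Mmp7 and -0.28 for Mptx2. The edgeR values of these 3 genes were 0.36 for Defa17, 0.40 for Mmp7 and 0.57 for Mptx2. With both KO4 and KO5 left out, an alternative added once the data had been seen, values were -0.50 for Defa17, -0.40 for Mmp7 and -0.86 for Mptx2. With 1 library left out, ranges were -0.23 to 0.17 for Defa22, -0.42 to 0.0055 for Defa21, -0.52 to 0.37 for Defa17, -0.30 to 0.17 for Lyz1, -0.0172 to 0.36 for Itln1 and -0.39 to 0.67 for Mptx2. For Mmp7 the range was 0.027 to 0.62. Defa24, Defa30 and Ang4 were positive in all 18 alternatives, but with 1 library left out their values ran from 0.10 to 0.53, 0.13 to 0.56 and 0.04 to 0.84. No paired analysis was possible because the column headers carry numbers that are not those of the labels. The lowest count of the members was 452 recovered reads, for Defa17 in KO7, and the effect of depth was not tested.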

Other observations

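The genes below are from the lists but outside the rule for named genes, and were chosen after their values were seen. Wnt3, a Wnt ligand that mouse Paneth cells supply to stem cells, had 69.1, 176, 57.3 and 89.4 normalized counts in KO4, KO5, KO7 and KO8, against 89.6, 42.9, 163 and 97.7 in WT3, WT5, WT7 and WT8 (limma adjusted p = 0.999). KO5 and WT7 were the high libraries and KO7 and WT5 the low ones, as for Lyz1. Pla2g2a, a secreted phospholipase A2, had 1368, 1684, 467 and 844 in KO4, KO5, KO7 and KO8, against 625, 570, 1294 and 833 in WT3, WT5, WT7 and WT8 (limma adjusted p = 0.898). KO4 was high for Pla2g2a, as it was for Mmp7. Mptx1, the relative of Mptx2, had 5.79 in WT8, against 154 to 339 in the other 7 libraries (limma adjusted p = 0.849).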
